A study of Mus musculus with 11 samples.

Results

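The Notch target genes Hes1, Hes2, Hes5, Hes6, Hes7, Hey1, Hey2, Heyl and Nrarp were followed through 11 ChIP-seq peak lists from mouse stomach glands. These 9 genes, of 21887 protein-coding genes in the annotation used, were taken by name and not by a cut-off on measured values. They were chosen with earlier results of these data known. For each gene, every peak in the gene body and 50 kb on each side was collected (mm10, the GRCm38 build). A peak that overlapped the 1 kb on either side of the gene's own start was counted as a peak at its own promoter, one within 1 kb of the start of another protein-coding gene as a peak at another promoter, and any other as distal. Strength was the rank of a peak within its own list, also given as a percentile in which 100 is the strongest peak.

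The series asks how Arid1a gene dose acts in stomach tumour formation. Acetylation of histone H3 at lysine 27 (H3K27ac, found at active promoters and enhancers) was profiled in 8 libraries, and trimethylation at lysine 4 (H3K4me3, found at promoters) in 3. Wild-type glands formed the first group. The second carried Atp4bCre, a Cre recombinase driven by a parietal cell gene, and Rosa26NICD, a transgene for the constitutively active intracellular domain of Notch; its titles call it the control, and it is called NICD here. The other 2 groups carried both of these alleles together with Arid1aflox/+ (1-allele) or Arid1aflox/flox (2-allele). Arid1a codes for a subunit of the chromatin remodelling complex SWI/SNF that contacts DNA. Each of these 4 groups had 2 H3K27ac libraries. H3K4me3 had 1 library each for wild type, NICD and an Arid1a-floxed genotype whose title says 1 allele and whose genotype field says 2, so it stands as a separate group. Fixed epithelial pellets were pooled before immunoprecipitation, so the p-values below measure only the spread between these libraries, and the Cre-bearing cells were not separated from the rest of the gland. Ages and treatments other than the alleles were not given in the labels, apart from a statement that no treatment was applied.

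When a Notch receptor is cleaved, its intracellular domain enters the nucleus, joins the DNA-binding protein Rbpj and a Mastermind coactivator, and switches on a small set of direct targets. The Hes and Hey genes encode basic helix-loop-helix repressors that are the best known of these targets, while Nrarp encodes an ankyrin-repeat protein that dampens the Notch complex. Rbpj recognises the core TGGGAA, and the Hes and Hey proteins bind N box, class C and E box sequences. In the stomach and intestine, Hes1 is known for holding progenitors back from secretory fates.

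The promoter sequences below show which members carry the Rbpj core next to their start. RefSeq sequence (GRCm38.p6, 250 bases before to 50 after the start) matched 5 of the 9 members, namely Hes5, Hes6 at both of its annotated starts, Hes7, Hey2 and Nrarp. Hes1, Hes2, Hey1 and Heyl were not matched. Hes5 and Hey2 are printed because they were the members with paired cores, Hes7 because it had 1, and the downstream start of Hes6 because the most regularly called promoter peaks lay at it or just past it. Each is written 5′ to 3′ on the gene's strand from 250 bases before the start to 10 bases after it, and capitals mark the core TGGGAA or, for a match on the opposite strand, TTCCCA. Hes6 has no capitals because the core was not in the window.
Hes5, chr4:154960673-154960932, plus strand: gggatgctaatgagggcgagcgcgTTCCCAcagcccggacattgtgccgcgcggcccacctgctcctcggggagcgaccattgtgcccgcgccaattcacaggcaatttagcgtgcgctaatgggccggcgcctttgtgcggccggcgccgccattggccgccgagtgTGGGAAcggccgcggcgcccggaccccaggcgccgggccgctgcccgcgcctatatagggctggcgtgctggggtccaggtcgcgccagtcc
Hey2, chr10:30842774-30843033, minus strand: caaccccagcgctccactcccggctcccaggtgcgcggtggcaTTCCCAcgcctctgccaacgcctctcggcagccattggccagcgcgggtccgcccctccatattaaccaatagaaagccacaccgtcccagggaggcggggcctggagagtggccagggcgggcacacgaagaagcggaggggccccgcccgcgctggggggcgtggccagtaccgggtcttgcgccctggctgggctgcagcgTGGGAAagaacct
Hes7, chr11:69120203-69120462, plus strand: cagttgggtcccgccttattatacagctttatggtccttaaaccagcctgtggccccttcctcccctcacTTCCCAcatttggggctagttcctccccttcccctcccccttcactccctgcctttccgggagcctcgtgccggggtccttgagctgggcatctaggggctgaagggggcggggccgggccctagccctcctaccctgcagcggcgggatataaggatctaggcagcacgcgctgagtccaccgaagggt
Hes6, downstream start, chr1:91413213-91413472, minus strand: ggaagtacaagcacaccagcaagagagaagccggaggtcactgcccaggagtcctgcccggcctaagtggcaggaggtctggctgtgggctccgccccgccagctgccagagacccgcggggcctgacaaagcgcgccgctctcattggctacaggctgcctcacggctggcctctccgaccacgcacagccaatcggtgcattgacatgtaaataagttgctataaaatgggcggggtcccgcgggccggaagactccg

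Motifs were searched on both strands of the 300 bases. The Rbpj core TGGGAA was present in 25.6% of 32851 RefSeq promoters of that length and present at least 2 times in 3.79%. Its longer form GTGGGAA, which contains the core, was present in 6.38% and at least 2 times in 0.256%. Hes5 held 2 copies of GTGGGAA on opposite strands, pointing away from each other, beginning at position -226 relative to the start on the opposite strand and at -83 on the gene's strand. Hey2 held 2 copies in the same arrangement, beginning at positions -207 and -4 relative to the start. Hes7 held 1 copy, at -180 on the opposite strand, and neither the Hes6 nor the Nrarp windows held the core. Of the repressor-binding motifs, CACNAG (N box) was present in 42.5% of all promoters, CACGNG (class C box) in 27.5% and CANNTG (E box) in 72.3%, and a single site can count under more than 1 of these. Hes7 held 1 N box and 2 class C boxes, Nrarp held 2 N boxes and a CACGTG that counts as a class C box on both strands, the 300 bases at the downstream Hes6 start held 2 N boxes, 1 of them past the printed end, and Hes5 and Hey2 held neither kind. A match describes letters in the window and was not tested as a bound site.

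Of the 11 lists, 9 came with scores, and the deposited 2-allele lists gave positions only, so their order in the file was taken as the order of strength. Tags left after duplicate removal ranged from 7.96 M (NICD replicate 2, redundant rate 0.52) to 20.81 M, and were not given for the 2-allele libraries. List length did not follow depth: H3K27ac lists held 20590 and 18360 peaks in wild type, 41405 and 25442 in NICD, 5165 and 7602 in the 1-allele group and 15362 and 14373 in the 2-allele group. All H3K27ac groups had epithelial promoters marked (5 of 5 list genes in each wild-type and NICD library, 5 and 4 in 2-allele, 2 and 1 in 1-allele). Parietal promoters were called for 4 and 2 of 8 genes in wild type and for 0 or 1 in each of the other 6 libraries, and Atp4a, a defining parietal gene, had no promoter peak in any list. Endothelial promoters numbered 0 of 6 and silent ones 0 of 4 in every H3K27ac library. A peak absent from a list is not an absent mark, and peaks were called without a control.

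The 9 windows held 38 and 31 H3K27ac peaks in the wild-type libraries, 86 and 51 in NICD, 5 and 12 in the 1-allele libraries and 31 and 24 in the 2-allele libraries. Group means were 34.5 ± 4.95 (SD, n = 2) in wild type, 68.5 ± 24.7 in NICD, 8.5 ± 4.95 in 1-allele and 27.5 ± 4.95 in 2-allele. Both NICD libraries lay above all others, both 1-allele libraries lay below all others, and the wild-type and 2-allele values met at 31. As a share of each list the picture was flatter, with 0.185% and 0.169% in wild type, 0.208% and 0.2% in NICD, 0.202% and 0.167% in 2-allele, and the lowest shares, 0.0968% and 0.158%, in the 1-allele libraries. The number of peaks near these genes moved with the length of the lists, and counts from lists cut to equal length are given below. In bulk chromatin, fewer cells with a mark and less mark per cell cannot be told apart.

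**Figure D1:**
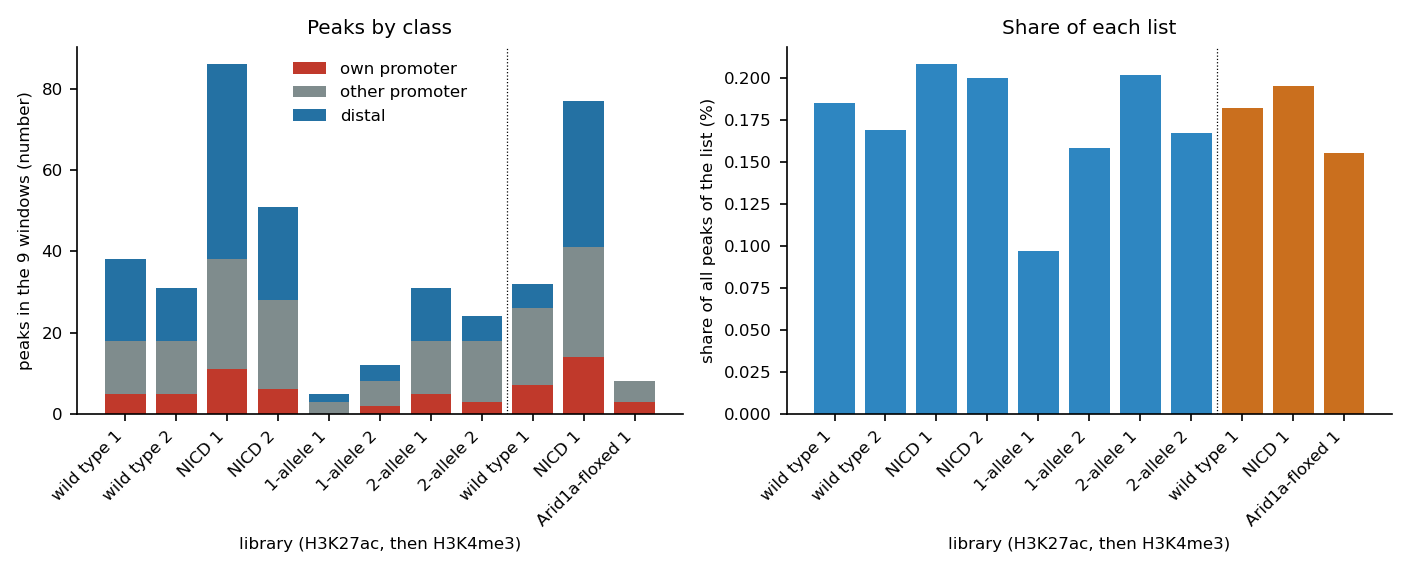
Left, the number of peaks in the 9 gene windows of each library, stacked by class (own promoter, another gene's promoter, distal); right, the same peaks as a percentage of all peaks in the list. NICD replicate 1 stands highest with 86 peaks and 1-allele replicate 1 lowest with 5, while the shares of the lists run from 0.0968% to 0.208%.

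Whether the number of peaks in a gene's window differed over the 4 H3K27ac groups was tested for every gene by an exact permutation test over the 105 ways to pair 8 libraries, whose smallest p is 0.00952, with Benjamini-Hochberg adjustment over 21887 genes. Exact p-values were 0.0286 for Hes5, Hey2, Heyl and Nrarp (adjusted p = 0.153), 0.0571 for Hes1 and Hes7 (adjusted p = 0.211), 0.0667 for Hes6 (adjusted p = 0.234), 0.229 for Hey1 (adjusted p = 0.416) and 0.238 for Hes2 (adjusted p = 0.431). No member passed after adjustment, nor did any of the 21887 genes. With steps this coarse, a gene could pass only if a large share of all genes tied at the smallest p, which 794 genes reached. The outcome therefore cannot show that the groups are alike. Before adjustment 4 of 9 members fell under 0.05, where 22.7% of all genes did. A comparison of 2 libraries with 2 cannot go below p = 0.333, by an exact permutation test, so pairs of groups are described by the peaks that both libraries of a group held and both libraries of the other lacked, beside the share of all genes or regions that did the same.

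The members fell into 3 kinds by their own promoter. Hes6 and Hey1 had a promoter H3K27ac peak in 7 of 8 libraries, Hes1, Nrarp, Hey2 and Heyl in 2 to 4, and Hes2, Hes5 and Hes7 in none. Among all 21887 genes, 2342 were called in the same 7 libraries as Hes6 and Hey1, so that pattern was common. The share of all genes called in none is not given here. Counted per library, 4 and 4 members had a promoter peak in wild type, 6 and 4 in NICD, 0 and 2 in 1-allele and 3 and 3 in 2-allele. Among all genes the shares were 44.8% and 42.6% in wild type, 54.3% and 48.9% in NICD, 17.2% and 27.1% in 1-allele and 44.4% and 42.7% in 2-allele.

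**Figure D2:**
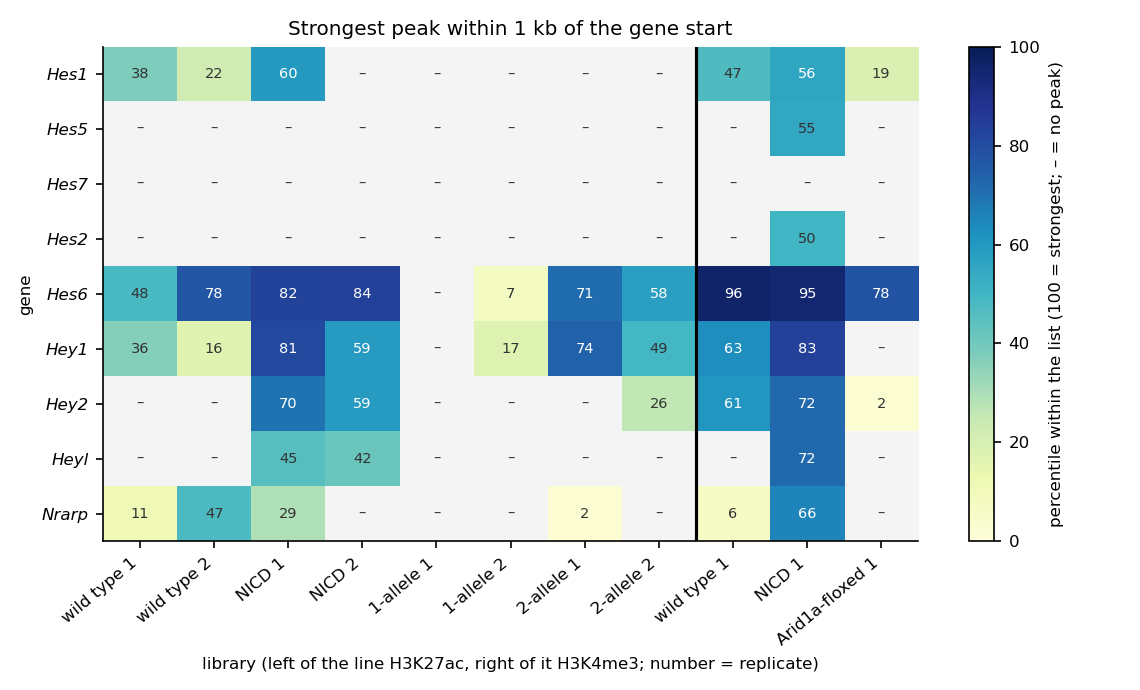
For each gene (rows) and library (columns), the within-list percentile of the strongest peak within 1 kb of the gene start, from 0 to 100 (strongest); a dash marks no peak. The Hes6 and Hey1 rows are filled in every H3K27ac library except 1-allele replicate 1, and the Hes5 and Hes2 rows are filled only in the NICD H3K4me3 library.

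Hes1, the repressor most closely tied to Notch in the gut, lies at chr16:30065357-30067796 with no other protein-coding gene start in its window. The annotation used gave it no strand, so both ends were kept as starts and distances are from the lower coordinate. Its promoter peak ranked 12806 of 20590 (percentile 37.8) and 14283 of 18360 (22.2) in the wild-type libraries and 16706 of 41405 (59.7) in NICD replicate 1. It was missing from NICD replicate 2 and from all 4 Arid1a-floxed libraries. The peak was centred 1.0 kb into the locus, on the gene body.

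A pair of sites classed as distal flanked Hes1 and were called more often than the peak within 1 kb of its ends. The upstream site, at -1.7 kb from the start, and the downstream site, at 4.6 kb, were each called in both wild-type and both NICD libraries and in 2-allele replicate 1. The class depends on the window. With a promoter window of 2.5 kb these sites count as the Hes1 promoter, which was then called in both NICD libraries. The downstream site also overlaps the long noncoding RNA gene Gm32998. In the scored lists, fold enrichment over the local background at the downstream site was 4.17 and 4.02 in wild type and 3.81 and 4.29 in NICD, so the 4 values overlapped. At the upstream site it was 3.66 and 3.86 in wild type against 2.84 and 3.44 in NICD. Both 1-allele libraries had no peak anywhere in the Hes1 window, and 2-allele replicate 2 had none either.

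NICD libraries added distal calls around Hes1. Sites at -30.9 and -11.6 kb were called in both NICD libraries and in no other H3K27ac library, with ranks of 15361 and 13653 at the first and 28015 and 16281 at the second. A site at -18.2 kb was shared by both NICD libraries and wild-type replicate 2. The window held 13 peaks in NICD replicate 1 and 5 in replicate 2, against 5 and 4 in wild type, so replicate 2 did not exceed the wild-type range and 6 of the 14 merged sites rested on NICD replicate 1 alone.

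Hes5, a repressor best known from neural progenitors, lies at chr4:154960626-154962372 and had no H3K27ac peak at its promoter in any of 8 libraries. The window held 2 and 2 peaks in wild type, 5 and 4 in NICD, 0 and 0 in 1-allele and 2 and 1 in 2-allele, which sets the groups apart without overlap except for wild type and 2-allele. Its most regular site was the promoter of Pank4, a neighbour 3.6 kb downstream, which was called in 6 of 8 libraries at ranks from 2601 to 7719 and in neither 1-allele library. H3K4me3 gave a different reading at the start itself. The NICD library alone had a promoter peak, from position -192 to 749 relative to the start, with a fold enrichment of 3.85 and a rank of 17839 of 39420. That peak covered 242 of the 300 bases in the promoter window, including the nearer of both GTGGGAA copies.

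Hes7, the repressor known for the segmentation clock, has its annotated start at chr11:69120453 and had no peak of either mark within 1 kb of it. A site at -2.3 kb was called in every wild-type, NICD and 2-allele library and was absent from both 1-allele lists. Fold enrichment there was 5.19 and 7.08 in wild type and 6.73 and 5.24 in NICD. The gene model reaches upstream to chr11:69118906, and with either end of the model taken as a start, or with a 2.5 kb window, this site counts as the Hes7 promoter. It also carried H3K4me3 in the wild-type and NICD libraries. Ends of the tRNA gene n-TGgcc5 and of the noncoding gene 9130213A22Rik lay within 1 kb of this site, and which gene it belongs to was not tested.

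A second Hes7 site set the 2-allele group apart. It lies at -47.1 kb, overlapping Tmem107 and the small nucleolar RNA gene Snord118, and was called in all 6 libraries of the other 3 groups. Fold enrichment was 6.17 and 7.61 in wild type, 9.84 and 10.75 in NICD and 5.64 and 5.67 in 1-allele, with the NICD pair above the others. Its ranks in the 1-allele lists, 2320 of 5165 and 2196 of 7602, were percentiles 55.1 and 71.1. Neither 2-allele list held it, and since those lists were deposited in another form, with no scores and no account of how they were called, genotype and list-making cannot be told apart. Inside Per1, a site at -24.7 kb was called in all but the 1-allele libraries, and a site at -23.1 kb only in the NICD and 2-allele libraries, in all 4 of them.

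Hes2, which encodes a further Hes repressor (chr4:152158867-152162469), also had no H3K27ac at its promoter in any library. Its most regular element, classed as distal by the gene starts used, lay 18.9 kb downstream inside Acot7. It was called in every H3K27ac library except 1-allele replicate 1. It also carried H3K4me3, a mark found at promoters, in the wild-type and NICD libraries, and whether it is a further start of Acot7 was not tested. Fold enrichment at this site was 7.09 and 6.34 in wild type, 10.29 and 9.84 in NICD and 4.33 in 1-allele replicate 2, and its percentile was 93.7 and 93.4 in NICD, 79.7 and 68.7 in wild type, 9.89 in 1-allele replicate 2 and 88.8 and 60.7 in 2-allele. The NICD values lay above the other scored libraries. The annotation gave Hes2 no strand, and the gene end with an H3K4me3 peak was taken as its start. An H3K4me3 call there follows from that rule and is given as a description: the NICD library alone had it, as 2 peaks with fold enrichments of 5.88 and 3.8.

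Hes6 differs from its relatives in that its protein is known to oppose Hes1 rather than to act as a standard Notch-induced repressor. The gene (chr1:91411483-91414038, minus strand) has annotated starts at chr1:91414038 and chr1:91413222. Its strongest promoter peak ranked 10649 and 4101 in wild type (percentiles 48.3 and 77.7), 7242 and 4190 in NICD (82.5 and 83.5), 7068 in 1-allele replicate 2 (7.04) and 4431 and 6100 in 2-allele (71.2 and 57.6). These peaks lay at or just past the downstream start, except in 1-allele replicate 2, where the peak lay between both starts. In NICD replicate 1 a further peak ran from position -447 to 594 relative to the upstream start, and NICD replicate 2 and 2-allele replicate 1 had 2 smaller peaks around it. Fold enrichment of the strongest peak was 5.01 and 6.38 in wild type and 7.46 and 7.42 in NICD, without overlap, and 4.02 in 1-allele replicate 2.

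Farther out, a site at -42.0 kb from the Hes6 start, inside Per2, was called in 6 libraries, and another at -22.8 kb in 5. Each was in both wild-type and both NICD libraries and in 1 of the 1-allele libraries. With 9 and 5 peaks in wild type, 13 and 11 in NICD, 1 and 3 in 1-allele and 8 and 4 in 2-allele, the Hes6 window was among the fullest.

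The Hey genes encode a related repressor group that is prominent in heart and blood vessels. Hey1 (chr3:8663359-8667038) had a promoter peak in 7 of 8 H3K27ac libraries, centred at -0.7 kb and shared with the gene LOC115489673, so the 2 genes cannot be told apart there. Its ranks were 13095 and 15324 in wild type (percentiles 36.4 and 16.5), 7827 and 10426 in NICD (81.1 and 59.0), 6282 in 1-allele replicate 2 (17.4) and 4000 and 7282 in 2-allele (74.0 and 49.3). Fold enrichment was 5.09 and 4.58 in wild type, 8.74 and 6.64 in NICD and 4.67 in 1-allele replicate 2, so the NICD pair lay above the others. A distal site at -34.9 kb from the Hey1 start was called in both NICD libraries only.

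Hey2 (chr10:30832359-30842783) had a promoter peak in both NICD libraries and in 2-allele replicate 2, and in no wild-type or 1-allele library. The NICD peaks ranked 12596 of 41405 (percentile 69.6) and 10395 of 25442 (59.1), with fold enrichments of 8.19 and 6.9, and the 2-allele peak ranked 10668 of 14373 (25.8). In NICD replicate 1 there were 2 peaks, from position -651 to -222 and from 31 to 376 relative to the start, and both GTGGGAA copies of the printed sequence lay in the gap between them. H3K4me3 was also called at the Hey2 start in the wild-type library, as 2 small peaks with fold enrichments of 6.15 and 5.58, beside 8.12 and 7.31 in NICD and 4.27 for 1 peak in the Arid1a-floxed library. In wild type, then, H3K4me3 was called at Hey2 in its 1 library while H3K27ac was called in 0 of 2.

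Heyl (chr4:123233556-123249870) had H3K27ac near it only in the NICD and 2-allele groups. No wild-type or 1-allele library had an H3K27ac peak anywhere in its window, whereas the NICD libraries had 6 and 4 and the 2-allele libraries 1 and 2. Its promoter peak was called in the NICD libraries alone, at ranks 22608 of 41405 (percentile 45.4) and 14887 of 25442 (41.5) and fold enrichments of 4.4 and 5.47. An intragenic site 6.2 kb after the start was likewise called in both NICD libraries and no other, at 4.8 and 4.27. The 2-allele peaks in the window lay at the promoters of Nt5c1a and Pabpc4 and none at Heyl. As at Hes2, the Heyl start was itself chosen as the end with H3K4me3, which was called there only in NICD, with a fold enrichment of 10.69 and a percentile of 72.2. With either end of each gene taken as its start, the H3K27ac promoter calls that set NICD apart from wild type were again those of Hey2 and Heyl. Heyl and Hey2 are expressed by vascular cells in many tissues. Of the mural list, 1 of 5 promoters (Acta2) was called in each NICD library and in wild-type replicate 1, and in none of the other 5 libraries. Of the leukocyte list, 1 of 4 (Ptprc) was called in both NICD libraries and 2-allele replicate 1, and 0 in the other 5. In H3K4me3, 4 of 5 mural and 3 of 4 fibroblast promoters were called in NICD and 0 in the other 2 libraries, beside 1 of 6 endothelial. That NICD library called 65.3% of all gene promoters. It also called 4 of 4 surface pit, 3 of 3 mucous neck and 3 of 4 chief promoters, and 1 of 5 endocrine and 1 of 4 leukocyte ones. The part of mural, endothelial, fibroblast or leukocyte cells in the Hey2 and Heyl results was not tested.

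Nrarp, the feedback inhibitor, lies at chr2:25180758-25183339. Its promoter was called in both wild-type libraries at ranks 18261 and 9678 (percentiles 11.3 and 47.3), in NICD replicate 1 at 29400 (29.0) and in 2-allele replicate 1 at 15008 of 15362 (2.31). NICD replicate 2 and both 1-allele libraries lacked it. Fold enrichment was 3.67 and 4.52 in wild type and 2.61 in NICD replicate 1. A distal site at 5.5 kb was held by both wild-type lists and by 2-allele replicate 1, and lacked by both NICD lists. This site overlaps the long noncoding RNA gene Gm52547. The Nrarp window held 14 and 8 peaks in NICD against 4 and 7 in wild type, without overlap, and 7 of them in each NICD library lay at the promoters of neighbours, Tor4a and Tubb4b among them.

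**Figure D3:**
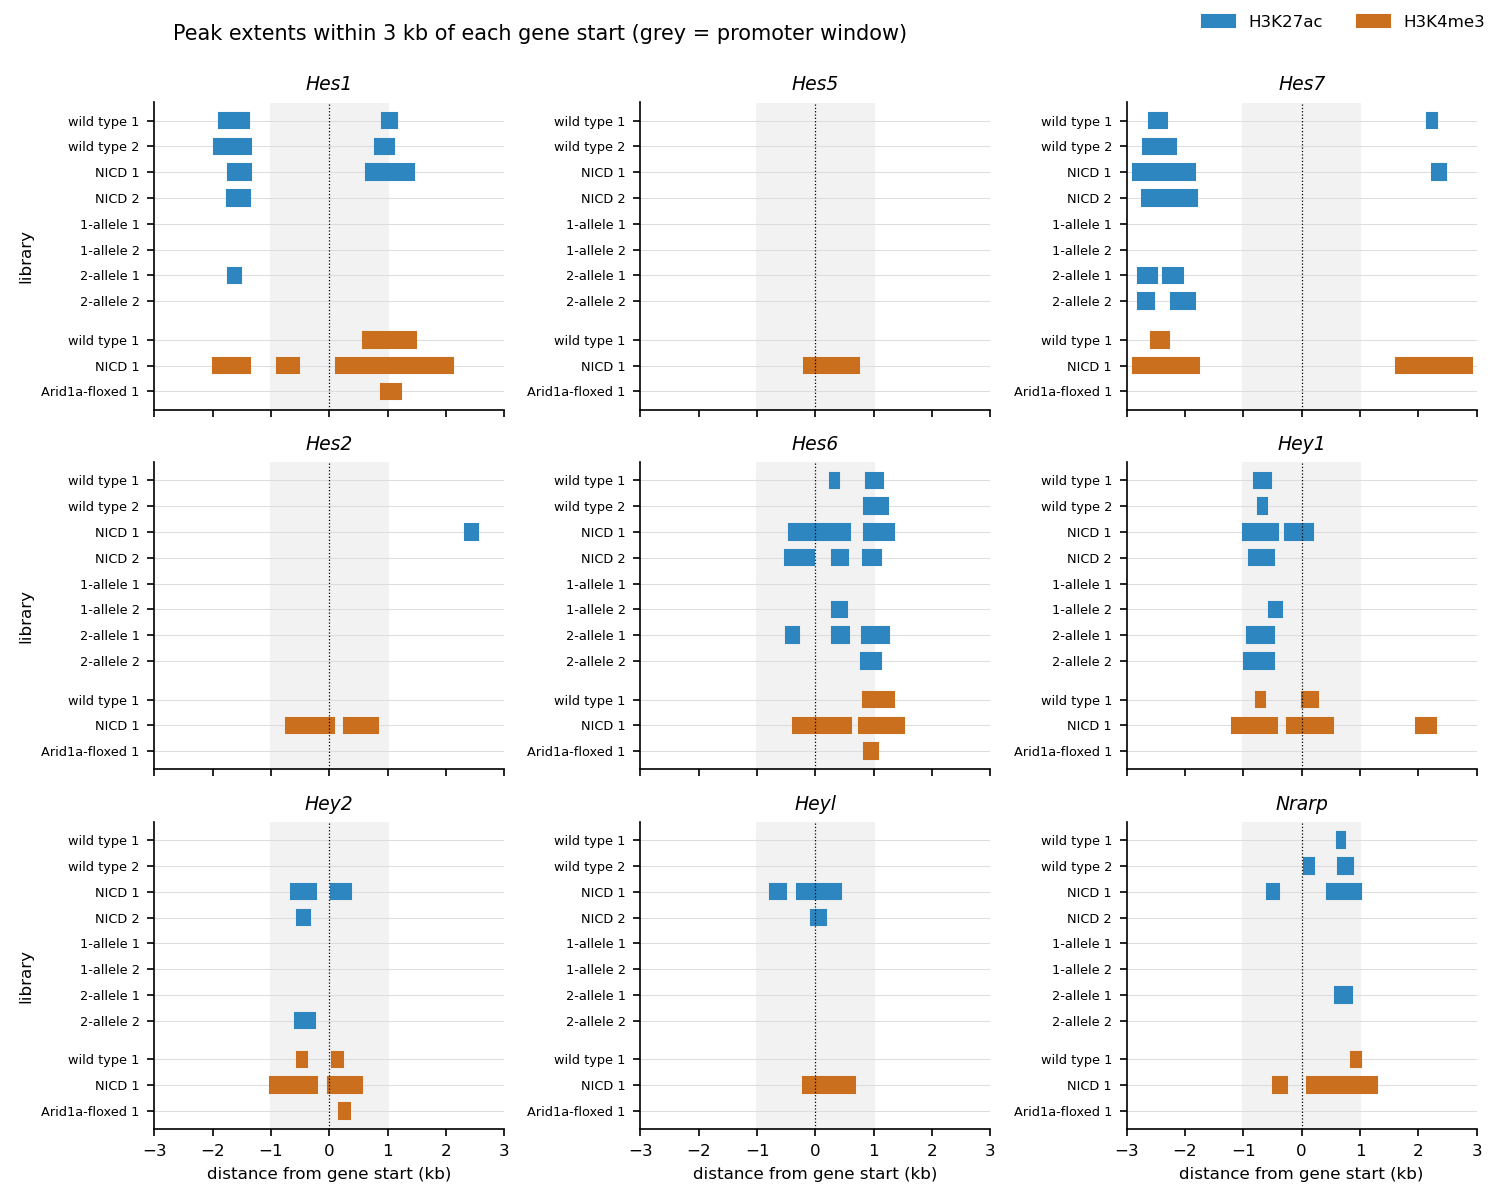
Extents of H3K27ac (blue) and H3K4me3 (orange) peaks within 3 kb of each gene start, 1 row per library; the shaded band is the promoter window of 1 kb on each side, and Hes1 is drawn from its lower coordinate. Heyl and Hey2 show H3K27ac in the NICD rows and not in wild type, Hes5 and Hes2 (whose start was chosen by that mark) show H3K4me3 in NICD alone within the band, and the Hes7 peaks lie outside it.

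Between NICD and wild type, the promoters of 2 of 9 members (Hey2 and Heyl) were called in both NICD libraries and neither wild-type library, where 3.8% of all genes were. No member promoter showed the opposite pattern, seen in 0.128% of genes. Every H3K27ac list was also cut to its strongest 14373 peaks, the shortest length outside the 1-allele group. Then 1 member (Hey2) remained called in both NICD libraries and neither wild-type library, and Hes1 showed the reverse. The Hes1 pattern arose with the cut: its peak ranked 14283 in wild-type replicate 2 and 16706 in NICD replicate 1, where the cut removed it. Fold enrichment of that peak was 2.97 and 2.77 in wild type and 3.06 in NICD replicate 1. Cut to the strongest 5165, none was left. The share of all genes was not computed at these list lengths. Among the 95 merged H3K27ac regions in the 9 windows, 16 (16.8%) were called in both NICD libraries and neither wild-type library, beside 12.9% of 45844 regions genome-wide, and 1, the downstream site of Nrarp, showed the reverse, beside 0.541%. The 16 were spread as 4 each at Heyl and Nrarp, 2 each at Hes1 and Hes7 and 1 each at Hes2, Hes6, Hey1 and Hey2. Without NICD replicate 2, 49 regions met the rule, and without NICD replicate 1 20 did, a single NICD library then having to hold the peak. The reverse was met by 4 regions without NICD replicate 1, when the promoters of Hes1 and Nrarp also met it, and by 2 and 3 without wild-type replicates 1 and 2.

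With 1 floxed Arid1a allele, the promoters of Hey2 and Heyl were again the 2 that separated, called in both NICD libraries and neither 1-allele library, a pattern of 19.1% of genes. None was gained (0.00457% of genes). Without 1-allele replicate 2, Hes6 and Hey1 joined them, and without NICD replicate 2 Hes1 and Nrarp did, for 4 members in each case. Of the 95 regions, 28 (29.5%) were called in both NICD libraries and neither 1-allele library, close to the 29.1% of all regions, and 0 were gained (0.072%). Leaving out NICD replicate 2 raised the 28 to 71. Of the 42 regions called in both NICD libraries, 1-allele libraries held 11.9% and 26.2%, against 21.4% and 31.9% of the 21090 such regions genome-wide.

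With 2 floxed alleles, 1 member promoter (Heyl) was called in both NICD libraries and neither 2-allele library, a pattern of 3.71% of genes, and none was gained (0.0228%). Without 2-allele replicate 2, Hey2 joined Heyl, and without NICD replicate 2, Hes1 did. Of the regions, 16 (16.8%) were missing from both 2-allele libraries, beside 15.4% of all regions, and 1 was gained (0.0873%), at the promoter of Per2 in the Hes6 window. Leaving out NICD replicate 2 gave 57 missing regions, and 2 and 3 were gained without NICD replicate 1 and without 2-allele replicate 2. The 2-allele libraries held 52.4% and 47.6% of the 42 NICD regions, against 60.1% and 56.6% genome-wide, and the wild-type libraries held 52.4% each, against 63.5% and 61.4%.

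Set directly against each other, the 2-allele and 1-allele groups differed at no member promoter in either direction, patterns of 12.2% (2-allele only) and 0.0366% (1-allele only) of genes. Hes6 and Hey1, called in both 2-allele libraries, were kept from this count by 1-allele replicate 2, and met it without that library. Hey2 met it without 2-allele replicate 1, and Nrarp without 2-allele replicate 2. Of the regions, 11 (11.6%) were called in both 2-allele libraries only, beside 9.15% of all regions, among them the Hes7 site at -2.3 kb and 3 sites in the Hes6 window. The Hes7 site at -47.1 kb was the 1 region with the reverse pattern, beside 0.369%. Without 2-allele replicate 2 the 11 became 17, and without 1-allele replicates 1 and 2 the reverse pattern was met by 3 and 2.

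**Figure D4:**
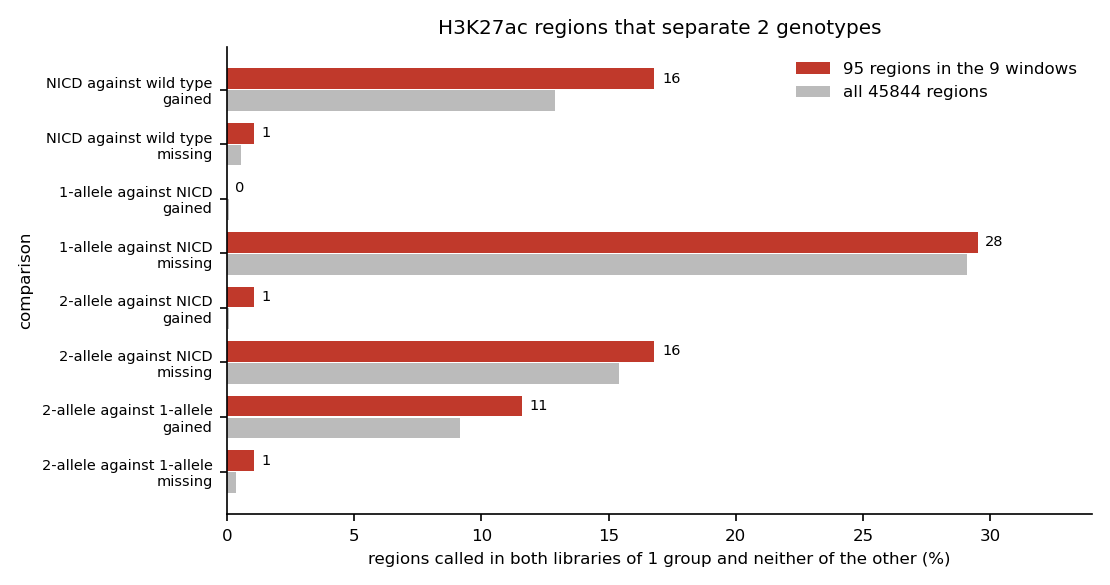
Share of H3K27ac regions called in both libraries of 1 genotype and neither library of the other, for the 95 regions near the 9 genes (red, with the number of regions) and for all 45844 merged regions (grey). The red and grey bars stand at 29.5% and 29.1% for regions missing from the 1-allele group against NICD. They stand at 16.8% and 12.9% for regions gained in NICD, and at 11.6% and 9.15% for those gained in 2-allele against 1-allele.

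Over the 95 regions, 12 lay at the members' own promoters, 27 at other promoters and 56 were distal. As many as 40 (42.1%) were called in a single library, close to the 43.7% of all regions, and 14 (14.7%) were called in 6 or more, against 20.9%. The single region called in all 8 libraries was the promoter of Vamp2, in the Hes7 window. Of the 56 distal regions, 18 were called in both NICD libraries, 10 in both wild-type, 5 in both 2-allele and 1 in both 1-allele libraries. The groups stand in the same order by the length of their lists. No share of all distal regions was computed, so whether these counts are particular to these genes was not tested.

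**Figure D5:**
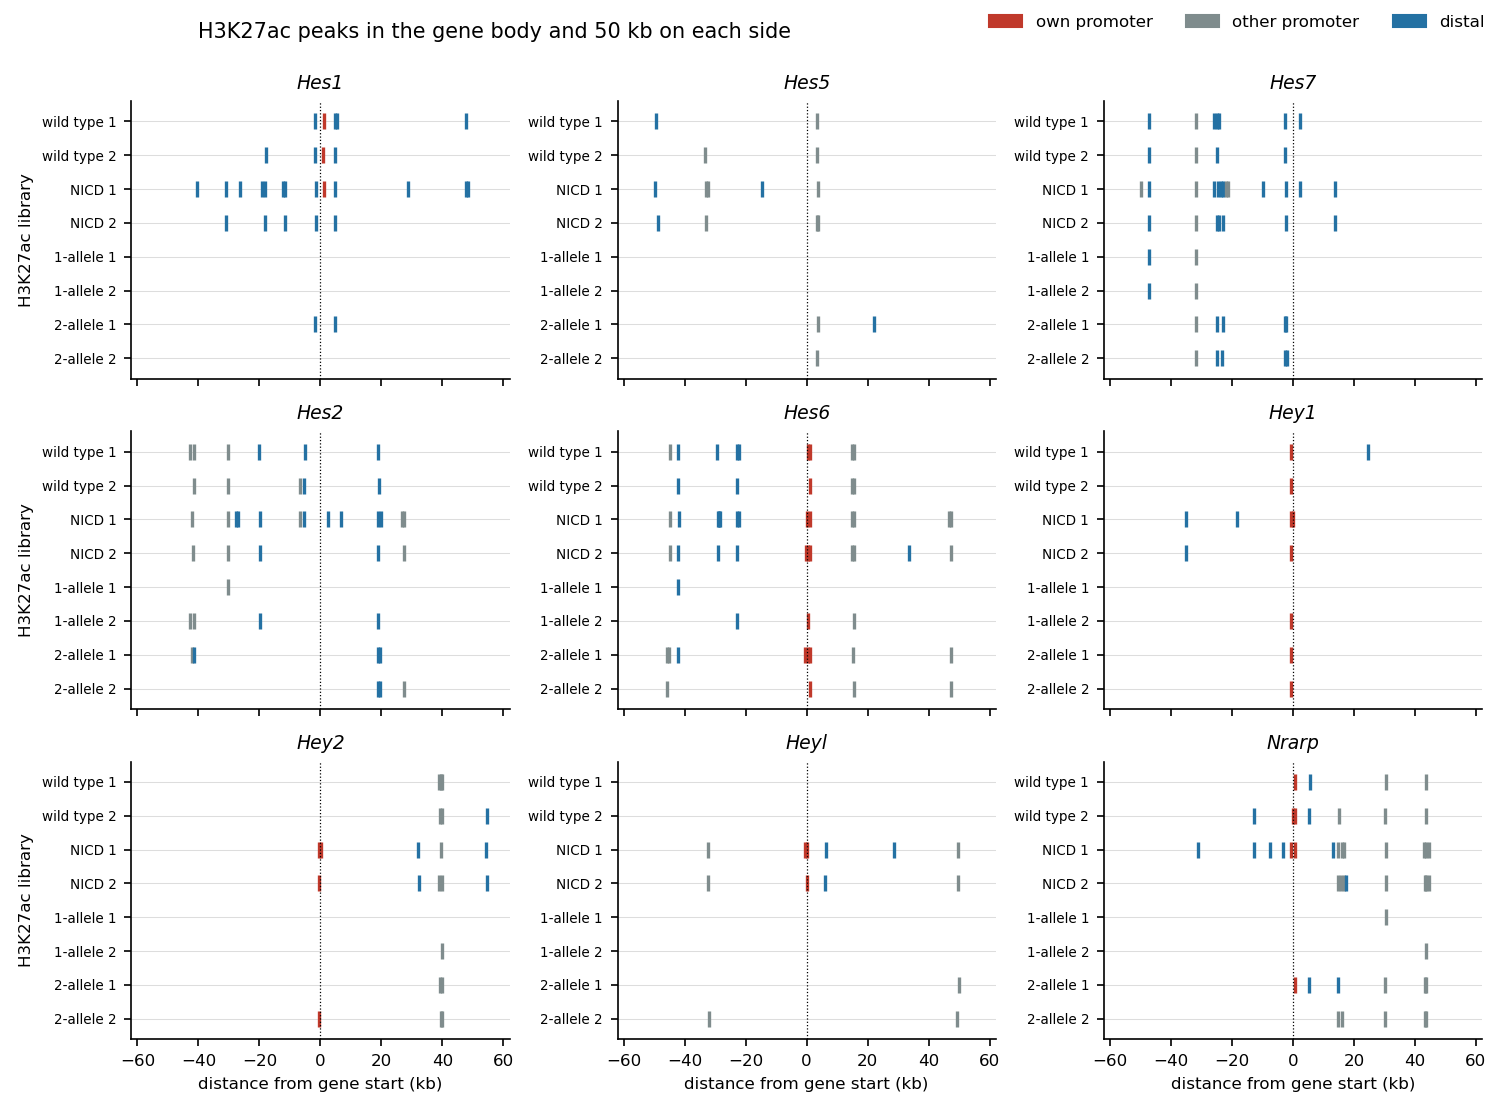
Midpoints of H3K27ac peaks (ticks) by distance from the gene start in kb for each gene and library, coloured by class; Hes1 is drawn from its lower coordinate and the others along the direction of transcription. The Hes1 window is empty in both 1-allele rows, the Heyl window is empty in both wild-type and both 1-allele rows, and the Hes7 site at -47.1 kb is missing only from the 2-allele rows.

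H3K4me3 had 1 library per genotype, so no difference in it has a replicate check. The 9 windows held 32 peaks in wild type, 77 in NICD and 8 in the Arid1a-floxed library, which are 0.182%, 0.195% and 0.155% of lists of 17558, 39420 and 5175. Promoters of Hes1, Hes6, Hey1, Hey2 and Nrarp were called in wild type (5 of 9, beside 49.9% of all genes). NICD had calls at these and at Hes2, Hes5 and Heyl, for 8 of 9 (65.3%), with Hes7 the exception, and the Arid1a-floxed library kept Hes1, Hes6 and Hey2 for 3 of 9 (20.7%). The starts of Hes2, Heyl and Hey1 were chosen by H3K4me3, so at least 1 H3K4me3 call at each was built into the rule, and the Hes2 and Heyl calls in NICD support no gain. Hes5, whose start is annotated, is not affected. Hes6 ranked 724, 2101 and 1139 in the 3 lists, the strongest member promoter in each, with fold enrichments of 8.03, 10.91 and 6.32.

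The rest of the pathway was read from 47 further Notch genes (receptors, ligands, processing enzymes, coregulators and related repressors). Their promoters were called for 32 and 33 of 47 in wild type (44.8% and 42.6% of all genes) and 39 and 37 in NICD (54.3% and 48.9%). In 1-allele 13 and 23 were called (17.2% and 27.1% of all genes), and in 2-allele 34 and 31 (44.4% and 42.7%). The promoter of the ligand Dll1 was called in both NICD libraries and neither wild-type library, a pattern of 3.8% of all genes. None of the list showed the reverse, seen in 0.128% of genes. In 1-allele against NICD, 14 of 47 were missing, among them the receptors Notch1 and Notch4, the ligands Dll1 and Dll4 and the coactivators Maml2 and Maml3, and 0 were gained. Dll4 and Bhlhe41 were the 2 missing from the 2-allele group (4.26% of the list, beside 3.71% of all genes). Another 7 of 47, including Notch1 and Dll1, were called in both 2-allele and neither 1-allele library (14.9%, beside 12.2%). The share of the list missing in 1-allele was 29.8%, beside the 19.1% of all genes. Only a promoter called in both NICD libraries can be missing, and 48.6% of all genes were called in both. The list was called more often in NICD, at 39 and 37 of 47 genes, so these shares do not compare like with like.

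Genes with the most similar promoter pattern over the 8 H3K27ac libraries were found by Pearson correlation of the within-list percentile, as a description over libraries that share depth and list length. Heyl was matched by Faxc, Ltf and Trim5 (each r = 1.0 after rounding) and shared its set of calling libraries with 369 genes. Hey2 was matched by Snrnp48 (r = 0.999), Mast3 and Rpl36a (both 0.998) and Hes1 by Clic3 (0.999), Batf and Prrg1 (both 0.996), with 102 and 76 genes called in the same libraries. Nrarp was closest to Rapgef4 (0.998), 4930430F08Rik (0.996) and Gpt (0.984). Hes6 was closest to Entpd2 (0.998), Naxd (0.997) and C87436 (0.995), and Hey1 to Agap3 (0.98), Mief2 (0.976) and Eif2b4 (0.975). Genes called in the same libraries numbered 18 for Nrarp and 2342 for Hes6, as for Hey1.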

How the data were processed

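Alignment used Bowtie2 and the mm10 (GRCm38) build, and peak calling MACS2, per the submitters' processing notes. MACS 2.0.10.20131216 made 9 of the 11 lists, per the file headers, from single libraries without a control, at a q-value threshold of 0.05, with a local background of 10 kb and an effective genome size of 2.7 Gb. These deposited lists hold the authors' values for each peak: positions, the pileup signal at the summit, fold enrichment against local background, and the p-value and q-value as −log10. These were used only to rank, describe or filter peaks within a list. Both deposited 2-allele lists give positions only, and their file order was used as rank: 95.6% and 94.8% of their first 1000 peaks overlapped a peak of 1-allele replicate 2, against 8.4% and 11.5% of their last 1000, much as in the scored lists.

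Gene starts came from the strand of RefSeq promoters (17492 genes), else from the single gene end within 1 kb of an H3K4me3 peak (2581), else both ends were kept (1814). An overlap of 1 bp counted as shared, and overlapping H3K27ac peaks were merged into regions. The exact permutation test was tested on simulated data. Replicate numbers in the labels did not pair libraries (correlations of deviations from group means of -0.065 to 0.104), so the main test had no block. Scripts used Python 3.11.15, numpy 2.4.6, pandas 2.3.3 and matplotlib 3.10.9. The alternatives were other promoter and gene windows, lists cut to equal length, a stricter q-value, other overlap rules, a replicate block and leaving out each library. The genes, gene lists and tests were chosen with earlier results of these data known. All 9 genes are named; of the other lists, genes called in both libraries of a group and neither of the other, and 3 genes of like pattern for each member called in part of the libraries. A result of the wider Notch gene list is not reported here.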

Additional observations from a re-analysis of the deposited data

How the results depend on the processing

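The exact permutation test gave 0 of 21887 genes at an adjusted p under 0.05 in the main fit and in all 15 alternatives. Among them the replicate block also gave 0 genes, with adjusted p-values of 0.308 to 0.45 for the 9 members. Its smallest p was 0.0417, against 0.00952 in the main fit, where 794 genes were at that value. Steps this coarse nearly fix the count at 0 after adjustment, so the equal counts do not measure how stable the result is. Before adjustment 4975 genes were under 0.05. Counts of members and regions depended on list length and threshold, and 20 of 80 recomputed counts of separating members, 6 of 32 counts of members called per group and 32 of 80 counts of separating regions moved by over 1.5 times. Shares of all genes and regions were computed in the main setting only. Whether the recomputed counts differ from what all genes or regions do was therefore not tested. With all lists cut to the strongest 5165 peaks, members with a promoter call in both libraries were 0 in the wild type, NICD and 2-allele groups, and members separating groups were 0 in NICD against wild type, 1-allele against NICD and 2-allele against NICD. Regions gained in NICD were then 2, those missing from 1-allele 3 and from 2-allele 2, those gained in 2-allele against 1-allele 1, and those gained in 2-allele against NICD 0. Cut to 14373, wild type had 2 such members, and NICD gained 1. The reverse was met by 1 (Hes1), whose peak in NICD replicate 1 the cut removed. From 1-allele 1 member was missing and from 2-allele 0. In NICD 6 regions were gained and 2 missing, while 9 were missing from 1-allele and 3 from 2-allele. Both 1-allele lists are shorter than 14373 and stayed whole, so comparisons with them were not at equal length. A −log10 q of at least 5 in the scored lists left 1 member (Hes6) called in both wild-type libraries, gave 4 missing from 1-allele and 2 gained in 2-allele against it, 10 regions missing from 2-allele and 0 missing from NICD. The 2-allele lists have no scores and stayed whole there, so comparisons with them were filtered on 1 side only. A promoter window of 2.5 kb gave 4 members (Hes1, Hes7, Hey2 and Heyl) missing from 1-allele. It gave 1 (Hes7) gained in 2-allele against 1-allele, and either gene end as start also gave 1. A window of 20 kb gave 7 regions gained in NICD, 14 missing from 1-allele, 7 missing and 0 gained in 2-allele against NICD, and 5 gained and 0 missing in 2-allele against 1-allele. A window of 100 kb gave 25 gained in NICD, 48 missing from 1-allele and 33 missing from 2-allele. Merging regions only where they shared at least 50% of the shorter peak gave 0 missing from NICD. Counting a peak by its midpoint moved no promoter count by over 1.5 times, though wild type then had 3 members called in both libraries in place of 4, without Hes1. Leaving out each library in turn gave the following lowest and highest counts. Fewer libraries then had to meet each rule, so a count could only stay or rise, and these ranges do not measure stability. Member promoters ran from 0 to 2 missing in NICD, 2 to 4 missing from 1-allele, 1 to 2 missing from 2-allele and 0 to 2 gained in 2-allele against 1-allele, and members called in the 1-allele group from 0 to 2. Regions ran from 20 to 49 gained and 1 to 4 missing in NICD, 31 to 71 missing from 1-allele, 20 to 57 missing and 1 to 3 gained in 2-allele against NICD, and 12 to 17 gained and 1 to 3 missing in 2-allele against 1-allele. The highest region counts missing from 1-allele and 2-allele and gained in NICD came without NICD replicate 2, the library with 7.96 M tags. Apart from list length, the cause was not tested. The sources used here give no depth for the 2-allele lists.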

Other observations

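Some of the most regularly marked regions in the windows of these 9 genes belonged to their neighbours. Vamp2, a vesicle SNARE gene at -31.8 kb from the Hes7 start, had a promoter peak in all 8 H3K27ac libraries at ranks from 101 to 1755. Ncoa7 near Hey2, Tubb4b near Nrarp and Ilkap near Hes6 had promoter regions called in 7 of 8 libraries, each missing only from 1-allele replicate 1. The promoter of Nelfb and Stpg3 near Nrarp was also called in 7 of 8, and was missing only from 1-allele replicate 2.

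The clock genes Per1 and Per2 lie next to Hes7 and Hes6, and several distal regions counted for these members lie inside them. At the Per2 promoter, a region at -44.9 kb from the Hes6 start was called in wild-type replicate 1, both NICD libraries and 2-allele replicate 1. A second Per2 region, at -45.8 kb, was called in both 2-allele libraries and in no other, at ranks 13230 of 15362 and 7660 of 14373. At Per1, the regions classed as promoter by the start used, at -22.1 and -21.2 kb from the Hes7 start, were called in NICD replicate 1 alone. The Per1 region at -24.7 kb, classed as distal and called in 6 libraries, also carried H3K4me3 in the wild-type and NICD libraries. Whether it is a further start of Per1 was not tested. Near Hes6, the promoter of Erfe, which encodes the iron hormone erythroferrone, was called in all NICD and 2-allele libraries and in no wild-type or 1-allele library. Near Heyl, the promoter of Pabpc4 had the same pattern, at ranks 14465 and 13460 in NICD and 13513 and 8669 in 2-allele.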
